A study of Homo sapiens with 12 samples.

Results

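The thyroid hormone receptor beta was supplied to cells labelled SW1736, a name that belongs to a human anaplastic thyroid cancer line, and compared with an empty vector in the presence of its ligand triiodothyronine (T3). The comparison takes 6 of the 12 RNA sequencing libraries of the study, 3 from cells with the pCDH-TRB vector (TRB cells) and 3 from cells with the empty pCDH-EV vector (EV cells), chosen by their sample titles. Both kinds of cells were starved of hormone for 24 h in medium free of phenol red with charcoal-stripped serum, and then given 10 nM T3 for 24 h. The other 6 libraries come from the same cells given the sodium hydroxide vehicle for 24 h, and they entered the fits. The series' design text says that the cells were transduced. The promoter in the vector, and whether each vector is carried by 1 clone or a pool of cells, are not given in the sources used here. The labels do not say that replicates are separate cultures, so p-values measure the spread between these libraries, which may be technical.

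Thyroid hormone receptors are nuclear receptors that sit on DNA with or without hormone. Without T3 they recruit corepressors, and with T3 they exchange these for coactivators, so the same receptor can lower or raise the transcription of its targets. The beta receptor, encoded by THRB, is often reduced in thyroid cancers and is studied there as a tumour suppressor.

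Counts within genes ranged from 3819306 to 13086717 across the 6 libraries. TRB replicate 2, with 7083744 counts, stood apart from the others. Relative to the mean of replicates 1 and 3, its expression fell by 1.79 on the log2 scale for every 10 points of gene GC content (Spearman correlation -0.886 across genes, which are not independent). The corresponding slopes of EV replicates 1 to 3 lay between -0.48 and 0.45, with correlations of 0.084, -0.823 and 0.794. EV replicates 2 and 3 thus also followed GC content, less steeply and in opposite directions, and they stayed in both of the fits that follow. Results are therefore drawn from a fit of all 12 libraries and from a fit of 11, without TRB replicate 2, and a value with no fit named is from the 12. In this text levels are CPM (counts scaled for library size), listed in the order of replicates 1, 2 and 3, and a gene passed if its edgeR adjusted p (quasi-likelihood test, Benjamini-Hochberg) was below 0.05. Differences are TRB minus EV cells under T3 on the log2 scale unless stated.

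The marker genes went against the labelled tissue. Of the thyroid genes, TSHR and FOXE1 had 0 counts in all 6 libraries, and TG reached at most 0.625 CPM. PAX8 stood between 0.72 and 5.32 CPM and NKX2-1 between 0.18 and 1.58 CPM. The 8 epithelial markers summed to 2030 to 5022 CPM, led by the keratins KRT8 and KRT18, while VIM, a mesenchymal gene, reached at most 1.08 CPM. Of the endothelial markers none of 7 exceeded 3 counts in any of the 6 libraries, and 7 of the 8 fibroblast markers had 0 counts. The leukocyte markers summed to 788 to 1589 CPM, nearly all of it LYZ, with CD3E, MS4A1 and CD74 at 0. Genes best known from gut epithelium, chosen after their values were seen, were present: VIL1 at 155 to 208 CPM, KRT20 at 57.5 to 109 CPM and LGALS4 at 56.1 to 630 CPM. The cells are therefore called by their vector only. The part of these markers in the results was not tested. In bulk RNA, fewer cells of a kind and less RNA per cell cannot be told apart.

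THRB itself was examined first, since it checks the labels. It stood at 322, 190.3 and 297 CPM in TRB cells and 12.3, 18.3 and 14.2 CPM in EV cells. These ranges did not overlap, as in 26.3% of all genes tested. The difference was 4.17 (SE 0.248, edgeR adjusted p 1.83e-05), and 4.41 in the fit of 11 libraries. In vehicle the TRB cells had 80.2, 79.8 and 80.4 CPM. The level in TRB cells was thus higher with T3 than in vehicle in each library, and transcripts of the vector and of the endogenous gene are counted together. THRA, which encodes the alpha receptor, did not pass (-0.74, adjusted p 0.3). TRB replicate 2 was again apart, with 64, 13.5 and 75.2 CPM in TRB cells against 86.9, 74.1 and 95.9 CPM in EV cells.

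Genes that differed between the vectors under T3 lay on both sides. Of 14431 genes tested, 964 passed (6.68%), of which 596 were higher in TRB cells (4.13%) and 368 lower (2.55%). Without TRB replicate 2, 2918 of 14825 genes passed (19.7%), 1747 higher (11.8%) and 1171 lower (7.9%). Between these fits 960 genes were shared in the same direction (596 higher, 364 lower; 6.65% of genes tested), and no gene passed in opposite directions. Among the shared genes the median difference was 1.55 for the higher and -1.12 for the lower ones, and 149 were more than 4-fold higher and 39 more than 4-fold lower in both fits. Of the 865 shared genes with a GC value, 811 also passed in the same direction in both fits with GC offsets, which remove a smooth GC trend from each library and called 28.8% of genes with 12 libraries and 41.8% with 11. The 12-library count depended on the EV libraries, and was 414, 608 and 455 without EV replicates 1, 2 and 3. The 11-library count was 1497 and 1555 without TRB replicates 1 and 3, and 4655 without EV replicate 2. With the 6 libraries alone, 32 genes passed. Higher genes were 61.8% of those called with 12 libraries and 59.9% with 11, but 50.2% and 44.2% with GC offsets, and 44.5% with limma-voom on 12 libraries, so the larger side depended on the method. That limma-voom fit used sample quality weights, which were 0.0169 for TRB replicate 2 and 5.83 for EV replicate 1. It thus nearly left TRB replicate 2 out. The count filter would not have been met by 257 genes without the TRB libraries with T3. For 247 it would not have been met without the EV libraries with T3. Such genes are said here to have met it through 1 group alone, but the 247 can include genes that needed TRB libraries as well. Where only 1 group was needed, the direction is partly set by the filter. Of the other 13927 genes 514 were higher (3.69%) and 364 lower (2.61%), and of 14334 with 11 libraries 1584 (11.1%) and 1165 (8.13%).

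The calls also differed by GC content. With 12 libraries, in the bin of genes with the lowest GC content (4044 of 12130 with a value) 238 were higher and 36 lower, against 57 and 80 in the bin with the highest. Without TRB replicate 2 these counts were 427 and 223 against 517 and 358. The median difference ran from 0.62 in the lowest to -0.51 in the highest bin with 12 libraries, and from 0.08 to -0.03 with 11.

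**Figure D1:**
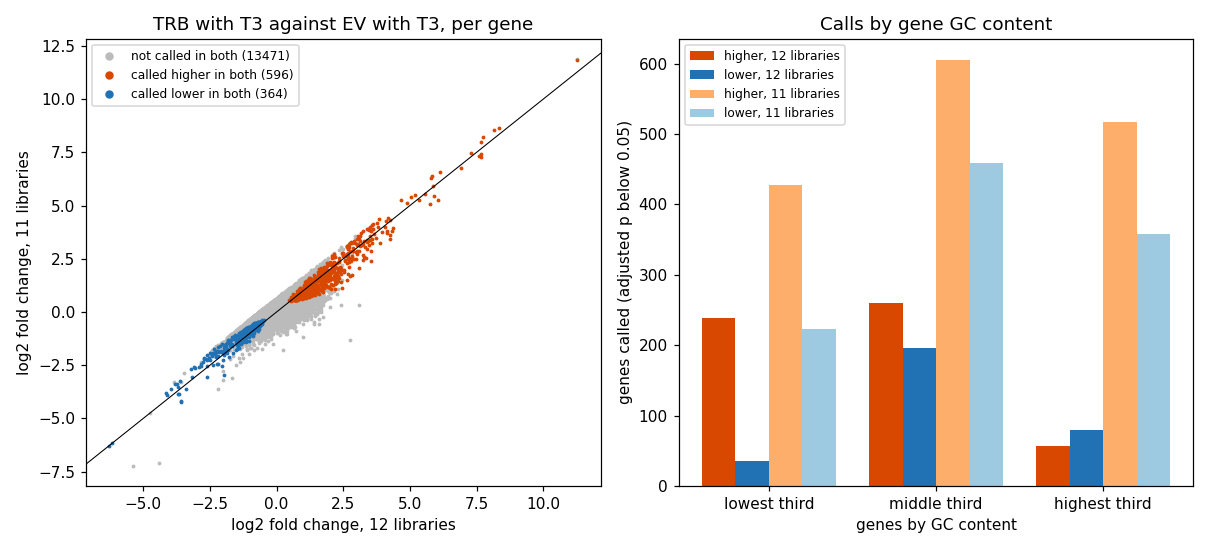
Left, log2 fold change of each gene (points) with 12 libraries (x axis) and without TRB replicate 2 (y axis), with genes that passed in both fits in orange (596 higher in TRB cells) and blue (364 lower); the line marks equal values. Right, number of genes that passed (y axis) by bin of gene GC content (x axis, equal numbers of genes), where 238 low-GC genes were higher and 36 lower with 12 libraries and 427 and 223 with 11.

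The genes with the largest increases included enzymes, transcription factors and a death ligand. All 12 genes taken by fold from the higher side passed in each of the 12 fits that left out 1 library. Their choice, as that of the lower side, had required a pass without TRB replicate 2 and no overlap of libraries. The carboxypeptidase M gene, symbol CPM, encodes a membrane enzyme that trims peptides. Its level was 108, 222 and 104 in TRB cells and 2.93, 2.75 and 1.27 in EV cells, in the same scaled counts, a difference of 5.91 (SE 0.487, edgeR adjusted p 0.000114) that was 5.47 with 11 libraries. MYT1, a zinc finger factor of neural development, stood at 239.6, 120.0 and 233 CPM in TRB cells and 4.17, 5.49 and 8.61 CPM in EV cells (5.04, SE 0.348, adjusted p 3.91e-05). In both genes the lowest TRB library exceeded the highest EV library by more than 10-fold. TFAP2C, which encodes the AP-2 gamma factor, was steady among the TRB libraries, at 95.3, 109.9 and 103 CPM, against 8.95, 7.4 and 7.85 CPM in EV cells (3.67, SE 0.243).

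TNFSF10 encodes TRAIL, a ligand that triggers apoptosis through death receptors. Its levels were 179, 487 and 174 CPM in TRB cells and 15.7, 18.6 and 9.62 CPM in EV cells, with TRB replicate 2 highest. The difference was 4.24 (SE 0.439, edgeR adjusted p 0.000339), and 3.60 without that library. APOL1, an interferon-inducible apolipoprotein, was more even, at 62.6, 49.6 and 62.1 CPM against 3.7, 3.28 and 3.04 CPM (4.11, SE 0.496). TP53INP2, which acts in autophagy and as a nuclear receptor coactivator, was 3.75 higher (SE 0.366). It stood at 904, 328 and 971 CPM against 51.5, 48.4 and 63.5 CPM, with TRB replicate 2 the lowest of its group. PDE5A, a cyclic GMP phosphodiesterase (3.56), PTAFR, the receptor of platelet-activating factor (3.47), the matricellular growth factor gene CTGF (3.44), SH3BP5 (3.39) and C2orf54 (3.83) completed the list. Their adjusted p values lay between 2.52e-05 (CTGF) and 0.00193 (C2orf54).

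Among the genes chosen by absolute change, GLUL led. It encodes glutamine synthetase and stood at 2809.8, 3445 and 2859 CPM in TRB cells and 324, 326 and 336 CPM in EV cells. The libraries of each group lay close together and far from the other group, and the difference was 3.21 (SE 0.149, edgeR adjusted p 4.13e-06). MMP7, which encodes the secreted protease matrilysin, stood at 1679, 2671 and 1727 CPM against 358, 360.3 and 308 CPM (2.57, SE 0.211). GPRC5A, an orphan receptor, was 1.40 higher (SE 0.245, adjusted p 0.00676). ATP1B1, the beta subunit of the sodium pump, and TAX1BP1, an autophagy receptor, were 1.20 and 2.63 higher. They lost the call without EV replicates 1 or 3, and ATP1B1 without EV replicate 2 as well, with an adjusted p of up to 0.116 and 0.0815. ARHGAP29, a regulator of the cytoskeleton, was 1.72 and lost the call in 9 of the 12 fits without 1 library.

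**Figure D2:**
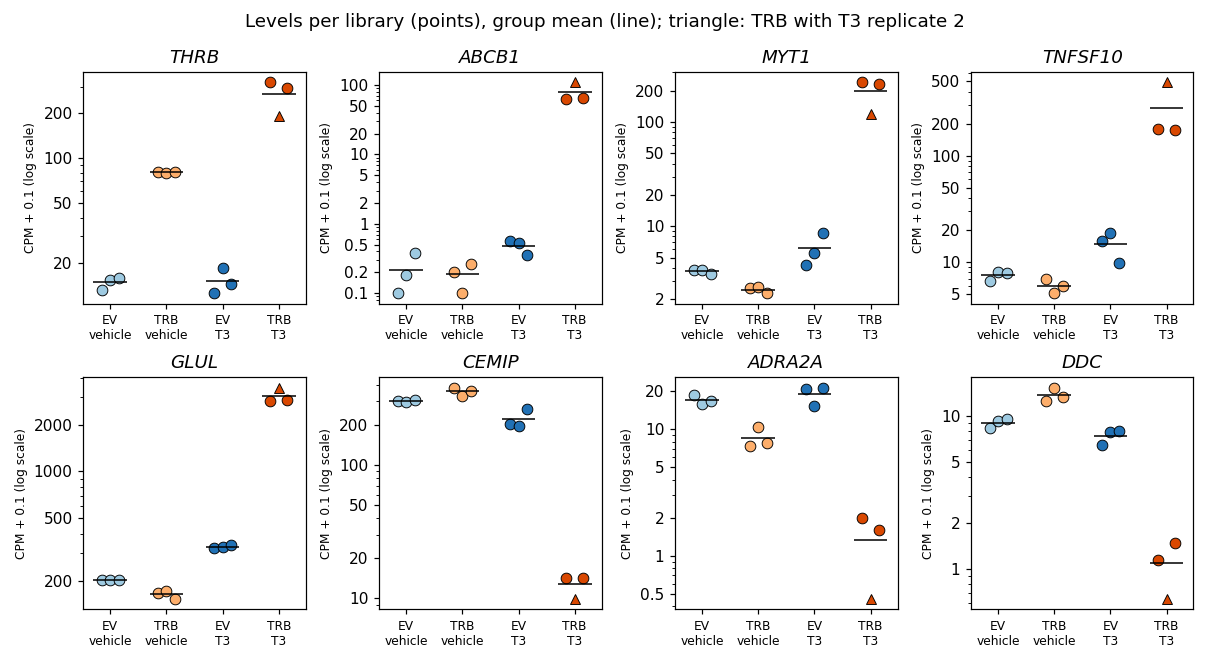
Level of 8 genes (y axes, CPM plus 0.1 on a log scale) in the 3 libraries of each group (points; the triangle is TRB with T3 replicate 2) with the group mean (line). The TRB libraries with T3 lie apart from the other 3 groups, above them for THRB, ABCB1, MYT1, TNFSF10 and GLUL and below them for CEMIP, ADRA2A and DDC.

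Among the genes chosen by fold, CEMIP had the most negative difference. It encodes a protein needed to break down hyaluronan, the large polysaccharide of the pericellular matrix. CEMIP stood at 14.2, 9.89 and 14.2 CPM in TRB cells and 201, 194 and 264 CPM in EV cells, a difference of -4.10 (SE 0.206, edgeR adjusted p 4.13e-06), and -3.88 with 11 libraries. ADRA2A, the alpha-2A adrenergic receptor, fell to 1.88, 0.36 and 1.5 CPM from 20.7, 15.2 and 21.3 CPM (-3.81, SE 0.391, adjusted p 0.000326). In vehicle ADRA2A was already lower in each TRB library (7.32, 10.3 and 7.72 CPM) than in each EV library (18.5, 15.9 and 16.5 CPM). This vehicle difference did not pass with 12 libraries (edgeR unadjusted p 0.0125) or with 11 (-0.97, edgeR adjusted p 0.0825, unadjusted p 9.00e-05). Of all genes, 1.48% had an unadjusted p below 0.05 in vehicle with 12 libraries and 12.4% with 11.

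Among the other strongly reduced genes, GALNT12, which starts O-linked glycosylation, had 16.4, 24.1 and 13.1 CPM in TRB cells and 82.3, 85.5 and 85.5 CPM in EV cells (-2.24, SE 0.21). The kinesin gene KIF21B (-2.42), the forkhead factor gene FOXQ1 (-1.90), the scaffold gene AHNAK2 (-1.91) and the collagen gene COL27A1 (-1.85) were lower as well. These passed in every fit without 1 library, although FOXQ1 did not with GC offsets on 12 libraries (adjusted p 0.293), while it did with them on 11 (1.11e-08). SPDEF, an ETS factor of secretory epithelia, ALDH3A1, an aldehyde dehydrogenase, and PPP1R1B, a phosphatase inhibitor, were -2.74, -2.48 and -1.82. Each lost the call without EV replicate 1 or 3, with an adjusted p of up to 0.0828, 0.0731 and 0.0822. CPNE7 and RP11-161M6.4 were -2.21 and -2.35, and lost it in 10 and 11 of the 12 fits without 1 library. These 5 passed without TRB replicate 2, which was a condition of their choice. That library had the lowest level of its group for each of them.

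Genes lower by absolute change included structural and translation genes. ENC1, an actin-binding adaptor, stood at 281, 306 and 266 CPM in TRB cells and 682, 664 and 682 CPM in EV cells (-1.25, SE 0.128, edgeR adjusted p 0.000316), and the scaffold gene AHNAK was -1.06. The ribosomal protein gene RPL12 was -0.77 (adjusted p 0.00666), which did not hold with GC offsets on 12 libraries (0.137) and did on 11 (8.64e-06). RPL12 has processed copies in the genome, so its reads are uncertain. The same holds for RPL4 (-0.62), EEF1A1 (-0.69) and FTH1 (-1.12), whose calls were lost in 8, 7 and 10 of the 12 fits without 1 library.

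The interferon-stimulated genes, which cells normally switch on through JAK-STAT signalling to resist viruses, held more higher than lower members. Of 30 tested members 12 were higher and 1 lower, with a median difference of 1.21, against 4.13% higher and a median of -0.01 over all genes tested. Without TRB replicate 2 the counts were 21 and 2 and the median 0.90, against 11.8% higher and a median of 0.02 over all genes. IFIT1, IFIT2, IFIT3 and MX2 met the count filter through TRB libraries alone. Without such members 8 of 25 were higher and 1 lower with 12 libraries (median 1.04, against 3.69% of all such genes higher), and 17 of 26 and 2 with 11 (median 0.81, against 11.1%). The 12 became 7 without EV replicate 1, 2 or 3, and the 21 became 13 without TRB replicate 1 or 3. Of the 18 JAK-STAT signalling genes none passed by edgeR with 12 libraries (5 at an unadjusted p below 0.05, 3 by DESeq2, 6 by limma-voom), and 1 did, higher, with 11.

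Sensors and effectors of the response were among the risers. MX2, an antiviral GTPase, stood at 3.6, 3.78 and 3.87 CPM in TRB cells against 0, 0.106 and 0 CPM in EV cells. EV cells held 1 count in all, and the ratio was 74 (95% counting interval 13 to 2951). IFIT2, which binds viral RNA, stood at 5.7, 13.1 and 6 CPM against 0.772, 0.423 and 0 CPM (4.15). No test is given for it, since the filter favoured this direction. Further members were picked after their values were seen, for their promoters below. IFIH1, a sensor of double-stranded RNA, had 13.7, 57.2 and 10.6 CPM in TRB cells and 2.93, 4.44 and 4.56 CPM in EV cells. Its call (2.76, edgeR adjusted p 0.02) was lost without EV replicate 1, 2 or 3 (up to 0.0955). DDX60, a helicase that aids such sensing, had 8.48, 23.2 and 8.12 CPM against 1.23, 2.11 and 0.253 CPM (3.26, adjusted p 0.00818). PARP14, an ADP-ribosyl transferase, had 377, 799 and 334 CPM against 118, 146 and 103 CPM (2.04, adjusted p 0.00285). In all 3 genes TRB replicate 2 was the highest library, and replicates 1 and 3 were still above all EV libraries. Such separation, in either direction, was seen in 26.3% of all genes tested. OAS1 went the other way (-0.78, adjusted p 0.0337), with a call lost in 10 of the 12 fits without 1 library.

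Antigen presentation genes were on the higher side too. Of 17 tested members of the list of MHC class I and antigen processing, 6 were higher and 0 lower with a median of 0.96 (4.13% of all genes were higher). Of the same 17 without TRB replicate 2, 12 were higher and 0 lower with a median of 1.08 (11.8% of all genes were higher). Without members that met the count filter through TRB or EV libraries alone, 6 of 16 were higher with 12 libraries and 11 of 16 with 11. The 6 became 4 without EV replicate 2. B2M, the invariant chain of MHC class I, stood at 374, 709.7 and 412 CPM in TRB cells and 186, 222 and 165 CPM in EV cells (1.38, SE 0.236, edgeR adjusted p 0.00613). TAP2, part of the peptide transporter, was at 40.2, 51.4 and 40.2 CPM against 13.1, 11.9 and 9.62 CPM (1.92, SE 0.192). The peptide-trimming enzymes ERAP1 and ERAP2 were 2.01 (SE 0.274) and 2.15 (SE 0.316) higher. No TRB library fell below an EV library in any of these 4 genes. The libraries of the compared groups did not overlap, in either direction, in 26.3% of all genes tested. TAP1 passed with 11 libraries (1.71, adjusted p 2.86e-05) and not with 12 (0.0829), where it did with DESeq2, limma-voom or GC offsets. HLA-C passed with 11 (0.98, adjusted p 0.000302) and not with 12 (0.479), where it did with limma-voom or GC offsets. For both genes the limma-voom fit gave TRB replicate 2 a weight of only 0.0169. HLA genes share reads, so their values are uncertain.

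Promoters of these genes were read from RefSeq (GRCh38.p14), which gave a window of 250 bases before to 50 after the start for 6747 of the tested genes. The windows were searched on both strands for GAAA followed after any 2 bases by GAAA, a core of the element bound by interferon-activated factors. It was found in 182 (2.7%) of all windows, in 26 of the 276 (9.42%) of genes higher in both fits and in 7 of the 164 (4.27%) of genes lower in both. Of the interferon list 12 of 18 windows held it, and 5 of the 7 of members higher in both fits. The antigen presentation list had 5 of 9, and 2 of the 2 higher in both fits. The 200 bases before the start are shown for 6 genes that rose and were picked because they hold a match. They run 5' to 3', with each match in capitals, to show where the element lies. TNFSF10 is at chr3:172523431-172523630, minus strand, IFIH1 at chr2:162318685-162318884, minus strand, DDX60 at chr4:168318753-168318952, minus strand, PARP14 at chr3:122680639-122680838, plus strand, B2M at chr15:44711317-44711516, plus strand and TAP2 at chr6:32838740-32838939, minus strand.
TNFSF10: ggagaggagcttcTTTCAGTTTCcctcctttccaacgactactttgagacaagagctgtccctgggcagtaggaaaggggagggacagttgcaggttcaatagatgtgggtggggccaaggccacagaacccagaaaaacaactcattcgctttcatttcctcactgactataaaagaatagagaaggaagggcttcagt
IFIH1: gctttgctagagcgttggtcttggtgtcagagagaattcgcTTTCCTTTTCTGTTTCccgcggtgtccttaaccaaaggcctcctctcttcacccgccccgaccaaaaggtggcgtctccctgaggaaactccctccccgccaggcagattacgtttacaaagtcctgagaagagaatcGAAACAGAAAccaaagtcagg
DDX60: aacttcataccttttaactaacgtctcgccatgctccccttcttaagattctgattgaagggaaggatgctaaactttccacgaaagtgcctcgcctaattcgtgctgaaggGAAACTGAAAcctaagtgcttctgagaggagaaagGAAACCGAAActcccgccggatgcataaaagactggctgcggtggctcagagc
PARP14: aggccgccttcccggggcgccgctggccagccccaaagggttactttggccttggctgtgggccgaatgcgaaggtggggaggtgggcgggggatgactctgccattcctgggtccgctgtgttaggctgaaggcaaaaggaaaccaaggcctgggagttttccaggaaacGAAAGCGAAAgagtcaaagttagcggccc
B2M: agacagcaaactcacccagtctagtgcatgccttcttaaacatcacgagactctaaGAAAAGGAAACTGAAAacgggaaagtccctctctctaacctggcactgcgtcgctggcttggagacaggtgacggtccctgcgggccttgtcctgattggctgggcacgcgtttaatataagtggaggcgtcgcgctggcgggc
TAP2: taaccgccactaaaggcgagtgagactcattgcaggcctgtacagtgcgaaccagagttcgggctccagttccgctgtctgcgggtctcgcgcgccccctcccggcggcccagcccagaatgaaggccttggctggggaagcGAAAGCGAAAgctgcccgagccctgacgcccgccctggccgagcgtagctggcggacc
TNFSF10 and IFIH1 hold the element on the opposite strand, where it reads as TTTC on both sides of the 2 free bases, and IFIH1 also on the given strand. In IFIH1 and B2M a pair of matches overlap and form 1 longer run of capitals. The half-site AGGTCA of thyroid hormone receptors was found in 32 of the 276 windows of higher genes (11.6%), in 22 of the 164 of lower genes (13.4%) and in 662 of all 6747 (9.81%). A match describes the sequence and is no evidence of binding.

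**Figure D3:**
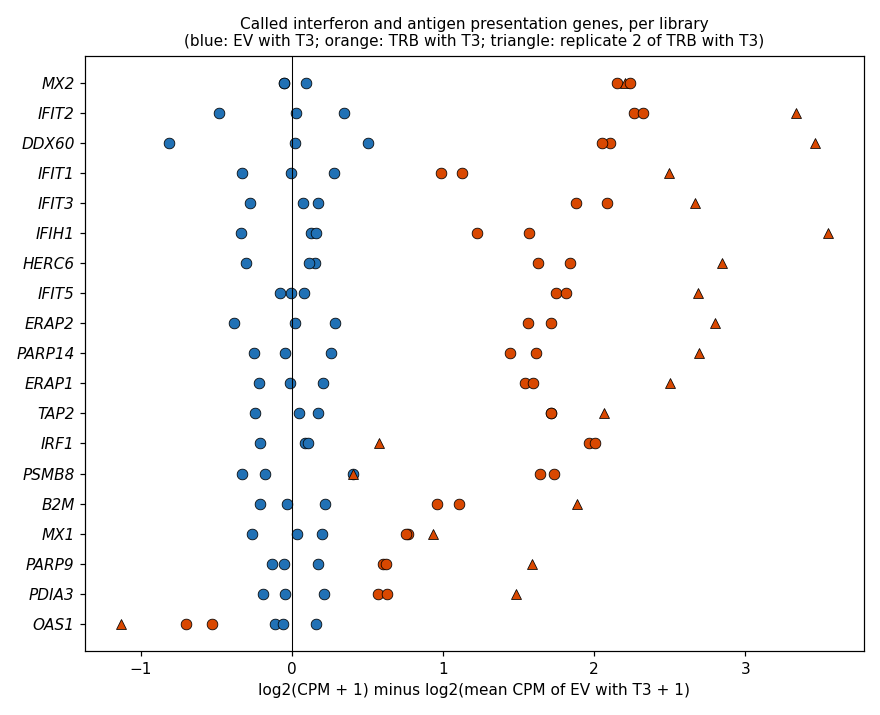
Level of each called gene of the interferon and antigen presentation lists in each T3-treated library, as log2(CPM + 1) minus the same of the mean of EV cells (x axis); blue, EV; orange, TRB; triangle, TRB replicate 2. The 3 TRB libraries lie right of the EV libraries for most genes and left for OAS1, and in PSMB8 TRB replicate 2 (6.84 CPM) is level with the highest EV library (6.83 CPM).

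Export transporters of the ABC family, known for moving drugs and conjugates out of cells, had no member that passed as lower with 12 libraries. Of 12 tested, 5 were higher and 0 lower (median 0.76, 4.13% of all genes higher), while GC offsets called 8 higher and 2 lower. The plain fit without TRB replicate 2 had 7 higher and 1 lower (median 1.11, 11.8% of all genes higher). Without ABCB1, which met the count filter through TRB libraries alone, 4 of 11 were higher with 12 libraries (median 0.54) and 6 with 11 (median 0.78). ABCB1, which encodes the multidrug pump P-glycoprotein, stood at 63.9, 109 and 64.5 CPM in TRB cells and 0.463, 0.423 and 0.253 CPM in EV cells, where the libraries held 3, 4 and 1 counts. Its difference was 7.59 (SE 0.531), in the direction that the filter favoured, so no test is given. ABCG2, the breast cancer resistance protein, had 292, 548 and 279 CPM against 55.3, 53 and 53.2 CPM (2.79, SE 0.274). In vehicle it was far lower in both kinds of cells (3.25, 2.93 and 2.18 CPM in TRB and 6.3, 5.07 and 5.24 CPM in EV cells). ABCC2, ABCC4 and ABCB4 were 3.23, 1.67 and 2.14 higher, all with edgeR adjusted p below 0.05 in every fit without 1 library. ABCC3 did not pass (adjusted p 0.279).

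Genes of the extracellular matrix changed in both directions. Among metalloproteinases and their inhibitors 3 of 14 were higher and 0 lower (median 0.67), namely MMP7, the collagenase gene MMP13 and the inhibitor gene TIMP2, and 7 of the same 14 were higher and 1 lower without TRB replicate 2. MMP13 met the count filter through TRB libraries alone, and without it 2 of 13 were higher, against 3.69% of all such genes. The 3 became 5 without TRB replicate 1, and the 7 became 4 without EV replicate 1 or TRB replicate 3. TIMP2 stood at 1049, 557 and 1143 CPM in TRB cells and 146, 129 and 144 CPM in EV cells (2.71, SE 0.248, edgeR adjusted p 0.000218). The fibronectin gene FN1 had 303, 147 and 275 CPM against 66.2, 72 and 73.9 CPM (1.77, SE 0.246), and in vehicle only 10.2, 9.39 and 9.15 CPM in TRB and 14.1, 16.5 and 13.6 CPM in EV cells. The laminin chains LAMA3 and LAMC1 were 1.26 and 0.89 higher, and COL17A1, a collagen of hemidesmosomes, was -1.16. Of 22 collagens, laminins and integrins these 3 passed with 12 libraries, and 5 were higher and 3 lower with 11. Over all genes 6.68% passed with 12 libraries, and 11.8% were higher and 7.9% lower with 11.

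Of 16 genes of the epithelial-mesenchymal transition, FN1 and ZEB1 were higher and 0 lower (median 0.12), and 5 and 0 with 11 libraries (median 0.03). Over all genes 4.13% were higher and 2.55% lower with 12 libraries, and 11.8% and 7.9% with 11. ZEB1, a repressor of epithelial genes, was low in absolute terms, at 2.85, 4.86 and 2.62 CPM in TRB cells and 0.463, 0.845 and 0.506 CPM in EV cells (2.37). It met the count filter through TRB libraries alone, so no test is given. The epithelial adhesion gene CDH1 stood at 236, 189.8 and 242 CPM against 160.4, 173 and 162 CPM, and was 0.59 higher with 11 libraries (adjusted p 0.000778) without passing with 12 (0.0982). Of 9 genes of hyaluronan turnover, CEMIP was lower and UGDH, which makes a hyaluronan precursor, was 1.02 higher. With 11 libraries TMEM2, a cell surface hyaluronidase gene, was also higher (0.32). UGDH was lost in 6 of the 12 fits without 1 library (adjusted p up to 0.117). CD44, the hyaluronan receptor, did not pass in either fit (adjusted p 0.563 and 0.203).

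Among catecholamine genes those that passed with 12 libraries were lower. Of 7 tested adrenergic receptors and catecholamine enzymes 3 were lower and 0 higher, with or without TRB replicate 2 (2.55% and 7.9% of all genes were lower). DDC, which makes dopamine from L-DOPA, stood at 1.05, 0.54 and 1.37 CPM in TRB cells and 6.33, 7.71 and 7.85 CPM in EV cells (-2.82, SE 0.274, edgeR adjusted p 0.00027). MAOA, which degrades monoamines, stood at 26.9, 31.7 and 23.9 CPM against 55.7, 54.2 and 59 CPM (-1.03, SE 0.162). ADRA2A was the other member that fell. ADRA2C stood at 6, 0.36 and 8.87 CPM against 0.309, 0.423 and 1.01 CPM, with TRB replicate 2 at the level of EV cells. It met the count filter only with 11 libraries and through TRB replicates 1 and 3 alone, so no test is given.

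Genes of developmental pathways differed in both directions. In the Hedgehog list 1 of 8 was higher and 2 lower with 12 libraries (median -0.41), and 1 and 4 with 11 (median -0.22), against 2.55% and 7.9% of all genes lower. GLI1, the transcription factor that is also the standard readout of the pathway, had 2.18, 0.36 and 3.37 CPM in TRB cells and 12.2, 13 and 13.4 CPM in EV cells (-2.64, SE 0.444, edgeR adjusted p 0.00561). The ligand gene IHH and the co-receptor gene CDON were -2.71 and 0.87, and were lost in 10 and 9 of the 12 fits without 1 library. The ligand gene SHH (-0.46) and the factor gene GLI2 (-0.77) were lower with 11 libraries. In the Notch list 1 of 14 was lower and 1 higher (median -0.53), and 2 and 3 with 11 libraries (median 0.03). Of all genes 2.55% were lower and 4.13% higher with 12 libraries, and 7.9% and 11.8% with 11. JAG1, a ligand, stood at 34.1, 31.1 and 28.1 CPM against 76.1, 75.1 and 72.6 CPM (-1.26, SE 0.149), while the target gene HES1 was 0.96, lost without EV replicate 1 or 2 (adjusted p up to 0.0776). With 11 libraries the receptor gene NOTCH1 was lower (adjusted p 0.00197), and the receptor gene NOTCH2 and the fringe gene MFNG were higher (0.57 and 1.68).

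In the Wnt feedback list 1 of 15 was higher and 1 lower with 12 libraries, and 3 and 3 with 11. Over all genes 4.13% were higher and 2.55% lower with 12 libraries, and 11.8% and 7.9% with 11. LGR5, a receptor for R-spondins that marks stem cells, stood at 83.5, 128 and 86.7 CPM in TRB cells and 27.5, 30.5 and 21.3 CPM in EV cells (1.91, SE 0.217, edgeR adjusted p 0.000605). RNF43, which removes Wnt receptors, was -0.60 and lost without TRB with vehicle replicate 1 or any 1 EV library with T3 (adjusted p up to 0.0871). The RUNX factors split. RUNX2, the bone master regulator, rose from 31.3, 35.5 and 25.3 CPM in EV cells to 103, 143 and 96.2 CPM in TRB cells (1.89, SE 0.215), and RUNX1, the blood factor, fell from 21.8, 21.4 and 20.5 to 8.41, 7.92 and 7.62 CPM (-1.41, SE 0.186). Neither range overlapped.

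Of 20 ERK output genes 5 were lower and 2 higher (median -0.43), and 6 and 3 without TRB replicate 2 (median -0.17), against 2.55% and 7.9% of all genes lower. The 5 became 1 or 2 in each fit without 1 library other than TRB replicates 2 and 3, and the 6 became 3 without TRB replicate 1. MYC, the growth-promoting transcription factor, stood at 139, 91.4 and 149.8 CPM in TRB cells and 326, 289 and 346 CPM in EV cells (-1.33, SE 0.205, edgeR adjusted p 0.0033). The ERK inhibitors SPRY1, SPRY2 and SPRY4 were -0.61, -0.88 and -0.99, and EGR1 -1.14. They were lost in 10, 10, 8 and 10 of the 12 fits without 1 library. CCND1, which encodes cyclin D1, rose instead (0.78, SE 0.15, adjusted p 0.0119), at 519.6, 699 and 555 CPM against 352, 361 and 321 CPM, as did the ERK phosphatase gene DUSP4 (0.84, adjusted p 0.00894). CCND1 and DUSP4 did not pass without a count filter.

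Few proliferation genes passed one by one. Of 40 tested, 2 were lower and 1 (CCND1) higher, with a median of -0.24, and 8 were lower and 1 higher without TRB replicate 2, with a median of -0.26 against 0.02 over all genes, of which 7.9% were lower. The 8 became 5 and 3 without TRB replicates 1 and 3, and 19 and 14 without EV replicates 2 and 3. MCM3, part of the replicative helicase, and KIF20A, a mitotic kinesin, were -0.77 and -0.82, lost without EV replicate 1 or 3 (edgeR adjusted p up to 0.102 and 0.0979). Of 13 cell cycle inhibitors none passed by edgeR with 12 libraries (2 at an unadjusted p below 0.05, 0 by DESeq2, 4 by limma-voom), and CDKN1A, which encodes p21, was higher with 11 (1.04). In the stem-like list 2 of 12 were higher and 2 lower, and 2 and 3 of these with 11 libraries, where the aldehyde dehydrogenase gene ALDH1A1 was lower too (-1.68). Over all genes 4.13% were higher and 2.55% lower with 12 libraries, and 11.8% and 7.9% with 11. ALDH1A3, which makes retinoic acid, stood at 101, 123 and 106 CPM in TRB cells and 24.4, 27.8 and 24.8 CPM in EV cells (2.10, SE 0.251), LGR5 was the other riser, and MYC and KLF4 fell. KLF4 was -0.95 and lost without EV replicate 1 or 3 (adjusted p up to 0.0614).

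Of 16 classical T3 target genes tested between the vectors 3 were higher and 0 lower (median -0.03), against 4.13% higher over all genes. Of the same 16 without TRB replicate 2, 5 were higher and 0 lower (median 0.01), against 11.8%. The 3 became 1 without EV replicate 1 or 3. ATP2A2, the calcium pump of the endoplasmic reticulum, stood at 1221, 1262 and 1215 CPM in TRB cells and 649, 653 and 630.5 CPM in EV cells (0.94, SE 0.126, edgeR adjusted p 0.0017). ME1, malic enzyme, and PPARGC1A, a coactivator of mitochondrial genes, were 1.31 and 1.38, both lost without EV replicate 1 or 3 (adjusted p up to 0.11 and 0.0804) and ME1 also without EV replicate 2. KLF9, a textbook T3 target, had 104, 257 and 105 CPM in TRB cells and 155, 169 and 123 CPM in EV cells, against 9.4 ± 1.51 and 14.1 ± 0.79 CPM (SD, n = 3) in vehicle. It did not pass between the vectors in either fit (adjusted p 0.9 and 0.0574), and its sign differed between them. With limma-voom on 12 libraries, which weighted TRB replicate 2 at 0.0169, it passed as lower (-0.54, adjusted p 9.84e-05). HR, a corepressor that T3 induces, did not pass either (adjusted p 0.595 and 0.789), with 46.4, 3.42 and 52.7 CPM against 51.5, 34.7 and 61.5 CPM.

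Genes that handle the hormone or its signal differed in both directions. FURIN, a proprotein convertase that T3 is known to induce, had 460.2, 35.1 and 496 CPM in TRB cells and 99.7, 66.7 and 114 CPM in EV cells. Replicates 1 and 3 lay above all EV libraries and replicate 2 below them, and FURIN passed without it (2.43, SE 0.163, edgeR adjusted p 6.94e-07). With all 12 libraries it did not (0.134), but did with DESeq2, GC offsets or limma-voom, which weighted replicate 2 at 0.0169. DIO3, the deiodinase that inactivates thyroid hormone, stood at 3.83, 0.18 and 5.37 CPM against 0.154, 0.211 and 0.506 CPM and met the count filter through TRB replicates 1 and 3 alone. Of the 7 hormone transport genes tested, 1 passed, the amino acid and hormone carrier gene SLC7A8 (2.06), lost without EV replicate 1, 2 or 3 (adjusted p up to 0.0778). SLC7A5 and SLC3A2, whose products pair as a carrier of amino acids and T3, were lower with 11 libraries (-1.01 and -0.65, adjusted p 0.00108 and 0.00806), as was the transporter gene SLCO4A1 (-0.88). Among 18 receptors and coregulators TBL1X, a subunit of the corepressor complex, was lower, at 28.1, 25.5 and 29.5 CPM against 89.2, 85.1 and 93.4 CPM (-1.68, SE 0.139, adjusted p 0.000114), and THRB was higher. With 11 libraries 2 of these 18 were higher and 1 lower. Both lists stand against 4.13% of all genes higher and 2.55% lower with 12 libraries, and 11.8% and 7.9% with 11.

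In the metabolic lists the members that passed were mainly higher. Of 23 glycolysis genes 4 were higher and 0 lower with 12 libraries (median 0.09), and 13 higher and 1 lower with 11 (median 0.55), against 4.13% and 11.8% of all genes higher. The 4 became 1 without EV replicate 1 or 3, and 2 without EV replicate 2 or any 1 vehicle library. PFKFB3, which makes the activator of phosphofructokinase, stood at 310.4, 107 and 330.3 CPM in TRB cells and 60.2, 50.2 and 66.1 CPM in EV cells (2.09, SE 0.347, edgeR adjusted p 0.00526). Of 20 genes of cholesterol and fatty acid synthesis 2 were higher and 0 lower (median -0.10), and 6 and 0 with 11 libraries (median 0.34), which became 3 without TRB replicate 1. SCD, which desaturates fatty acids, had 1046, 1062 and 992 CPM against 370.1, 359 and 381 CPM (1.48, edgeR adjusted p 0.00013), and INSIG1, a brake on sterol synthesis, was 1.44 (SE 0.228).

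The lists that follow stand against 4.13% of all genes higher and 2.55% lower with 12 libraries, and 11.8% and 7.9% with 11. Among cytokines and NF-kappaB genes 2 of 16 were higher and 2 lower, and 3 and 4 of these with 11 libraries. Of the genes called with 12, BIRC3, CXCL1 and IL1A were lost in 6, 2 and 1 of the 12 fits without 1 library. IL32 stood at 43, 9.35 and 50.8 CPM in TRB cells and 0.154, 0.211 and 0 CPM in EV cells, which held 3 counts in all, and met the count filter through TRB libraries alone. The ratio was 255 (95% counting interval 86.8 to 1236). In the PI3K-AKT list 4 of 16 were higher and 0 lower with 11 libraries, and 2 higher with 12, the kinase genes PIK3CD (2.77), lost without EV replicate 1, 2 or 3 (edgeR adjusted p up to 0.0883), and SGK1. In the TGF-beta list 2 of 16 were higher and 1 lower, and the receptor gene TGFBR1 (1.44) and the ligand gene BMP4 (-1.10) were each lost in 9 of these fits. Without TRB replicate 1 or 2, 4 were higher, and without replicate 2, 3 of these 16 were lower. Its ligand gene TGFB3 stood at 11, 8.63 and 11.1 CPM in TRB cells and 1.7, 1.37 and 1.01 CPM in EV cells (2.87, SE 0.392, adjusted p 0.00177). In the stress list the chaperone gene HSPA5 was 0.98, lost in 8 of these fits, and ASNS, asparagine synthetase, was -1.27 (adjusted p 0.00733), of 14 tested, of which 4 were higher and 4 lower with 11 libraries. None of 14 BCL2 family genes passed in edgeR with 12 libraries (0 at an unadjusted p below 0.05, 1 by DESeq2, 7 by limma-voom). Of these 14, BAK1 and BMF were higher with 11 libraries (0.83 and 0.80) and PMAIP1 lower (-0.76). None of 13 mitochondrial transcripts passed in edgeR in either fit (0 at an unadjusted p below 0.05 and 0 by DESeq2 in both, 8 by limma-voom with 12 libraries and 9 with 11).

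**Figure D4:**
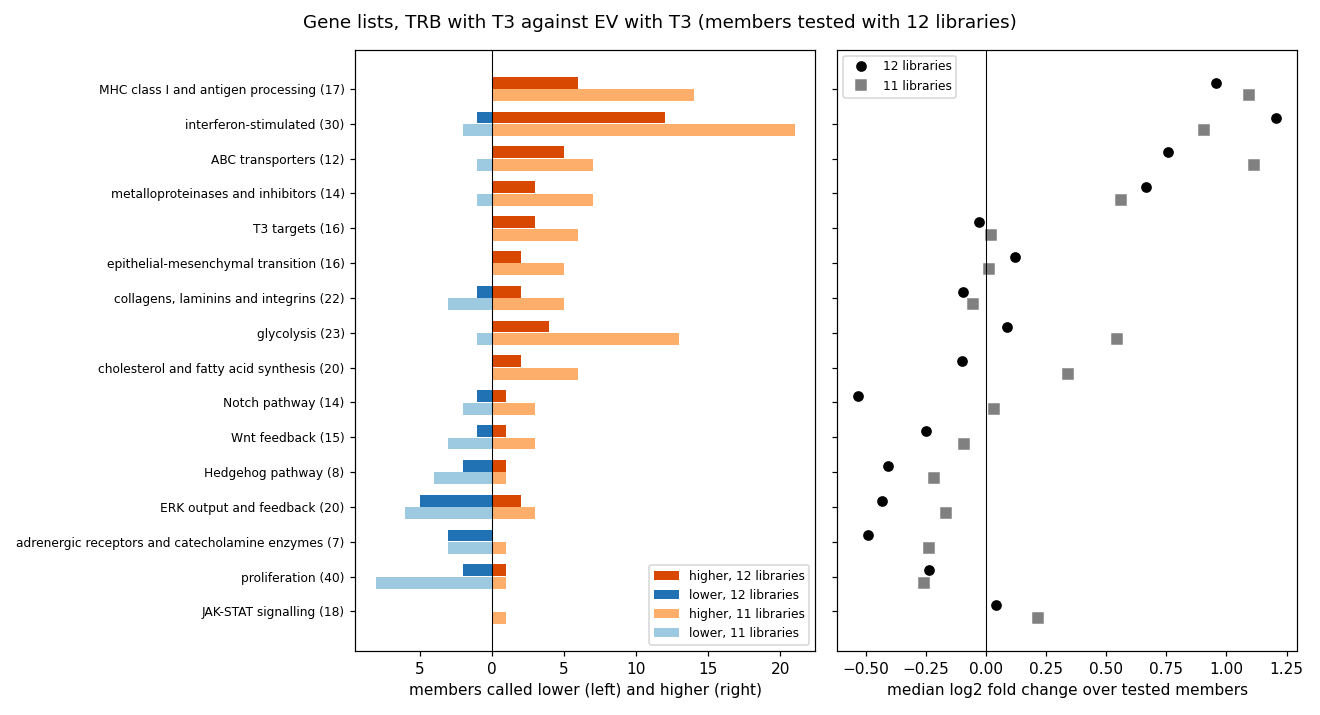
Left, number of members called higher (right of 0) and lower (left of 0) in TRB than in EV cells under T3, for 16 gene lists (rows, with the members tested with 12 libraries), in dark colours with 12 libraries and in light colours without TRB replicate 2. Counts with 11 libraries include members tested in that fit only. Right, median log2 fold change over the tested members, which with 12 libraries is 1.21 for the interferon and 0.96 for the antigen presentation list, and with 11 libraries 0.90 and 1.09, against 1.11 for the ABC transporters.

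In vehicle few of these genes passed between the vectors. Of the 24 genes taken by fold, 1 (THRB) did with 12 libraries and 2 with 11, against 0.0208% and 0.0742% of all genes tested. At an unadjusted p below 0.05 these were 5 and 11 of the 24, against 1.48% and 12.4% of all genes. For 28 named genes the difference under T3 differed from that in vehicle in both fits and in all 12 fits without 1 library. This was tested by an interaction term of the same model, which called 2.59% of all genes with 12 libraries and 15.2% with 11. Most named genes were chosen for their difference under T3, which the interaction contains, so their number is largely set by that choice. GLUL stood at 167, 172 and 153 CPM in TRB cells and 201, 201 and 200.3 CPM in EV cells in vehicle, and its interaction was 3.50 (edgeR adjusted p 4.6e-05). CEMIP stood at 379, 330.3 and 359.6 CPM and 303, 295 and 308 CPM in vehicle, with an interaction of -4.34 (adjusted p 5.16e-05). MYT1 followed the same form, at 2.44, 2.5 and 2.18 CPM and 3.69, 3.68 and 3.4 CPM.

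SGK1 and CLEC3A changed with the hormone in another way. SGK1, a kinase of salt and survival signalling, was lower in TRB than in EV cells in vehicle, at 12.1, 12.8 and 12.3 CPM against 26.1, 29.8 and 28.5 CPM, and higher under T3, at 240.5, 264 and 259.8 CPM against 78.1, 84.7 and 65.8 CPM. Its difference under T3 was 1.74 (SE 0.151, edgeR adjusted p 0.000156) and the interaction 2.92 (adjusted p 0.00017). CLEC3A, a secreted lectin-like protein gene chosen after its values were seen, was lower in TRB cells in both conditions. It stood at 0.508, 0.345 and 0.671 CPM against 7.38, 11 and 10.1 CPM in vehicle and at 29.8, 32.2 and 29.1 CPM against 73.5, 76.7 and 58.2 CPM under T3, so the gap was smaller with T3 (-1.20) than without (-4.20), with an interaction of 3.0 (adjusted p 0.00206).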

How the data were processed

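RNA of 12 libraries was sequenced, 3 for each combination of vector and treatment. The deposited values are unnormalised read counts for 56832 gene symbols in each library. A table of normalised values was not used here. Per the submitters' processing notes the tools were CASAVA 1.7, STAR 2.7, HTSeq 0.10 and DESeq2 with build hg38. The annotation and strand setting are not given in the sources used here, so reads of overlapping, antisense or duplicated genes are uncertain. The 5 closing lines for reads of no gene were left out. They made up much of some files. Reads marked as not unique were 58.9%, 19.0% and 66.6% of the totals of TRB libraries with T3. In EV libraries with T3 they were 77.7%, 69.6% and 92.0%, so the compared groups did not overlap in this share. Its part in the results was not tested.

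Differential expression used edgeR 4.0.16 under R 4.3.3: filterByExpr (minimum count 10), TMM scaling and a quasi-likelihood fit with 1 coefficient per group, two-sided, adjusted by Benjamini-Hochberg over all genes tested. CPM are counts divided by the effective library sizes of the 12-library fit. With 1 to 3 counts in a group the ratio of totals is given with its 95% interval, which covers counting error only. On simulated counts for 14431 genes the 12-library fit recovered 68.7% of 4-fold and 5.10% of 2-fold changes, and the 11-library fit, on 14825 genes, 91.0% and 70.7%. Of the calls 6.41% and 5.85% fell on unchanged genes. The simulated counts carried no GC trend, unlike the libraries, so these shares may differ in the data.

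The markers, the 33 gene lists and the named genes were chosen with earlier results of these data known. Named genes are the markers, the 12 with the largest fold and the 6 with the largest CPM difference in each direction (past the threshold in both fits, libraries not overlapping, mean log2 CPM of at least 3), up to 2 called members of each list in each direction, and any member of lists with at most 20 tested. Alternatives were DESeq2 1.42.0, limma 3.58.1 (voom), other scalings and filters, GC offsets from GENCODE release 29, a replicate block and leaving out each library. Counts without genes that met the count filter through 1 compared group alone were added after seeing the data. Some genes are not reported here.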

Additional observations from a re-analysis of the deposited data

Results flagged for a closer look

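The difference between the vectors under T3 was set against that in vehicle for the 127 named genes tested, with the interaction term of the edgeR fit. It passed in both fits for 62 of them, 40 positive and 22 negative. Over all genes it passed for 2.59% with 12 libraries and 15.2% with 11. Most named genes were chosen for their difference under T3, which the interaction contains, so these counts and signs are largely set by that choice. In each of the 12 fits without 1 library the interaction passed for 28 of the 62, which are given here. For the other 34 it was lost in at least 1 such fit (adjusted p up to 0.184). Values are log2 interactions with 12 libraries.

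Most of the positive values belong to genes that rose under T3. Among enzymes, factors and ligands these were the carboxypeptidase M gene CPM (8.37, whose size depends on the prior count because vehicle libraries held few counts), MYT1 (5.63), TNFSF10 (4.58), TP53INP2 (4.28), SH3BP5 (4.23), TFAP2C (4.21), GLUL (3.50), ALDH1A3 (3.02), RUNX2 (2.62) and SCD (1.96). The transporters ABCG2 (3.77) and ABCC4 (1.97) and the antigen-trimming enzymes ERAP2 (2.64) and ERAP1 (2.23) also had positive values. Matrix and signalling genes were MMP7 (3.64), SGK1 (2.92), CTGF (2.74), TIMP2 (2.72), FN1 (2.40) and LGR5 (1.88). CLEC3A had 3.0, from a gap in vehicle that was smaller under T3.

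Negative values were those of CEMIP (-4.34), DDC (-3.42), GALNT12 (-2.28), FOXQ1 (-1.85), TBL1X (-1.62), JAG1 (-1.57) and ENC1 (-1.25).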

How the results depend on the processing

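The count of 964 genes with 12 libraries was 1825 with DESeq2, 6543 with limma-voom and sample quality weights, 32 with the compared groups alone, 337 with a required fold of 1.5, 3493 with GC offsets and 1486 with GC offsets on the compared groups alone, a setting added after seeing the data. Omitting single libraries gave between 414 genes, when EV replicate 1 under T3 was omitted, and 2918, when TRB replicate 2 was. The count of 2918 with 11 libraries was 6812 with limma-voom, 1224 with the compared groups alone, 775 with a required fold of 1.5 and 5144 with GC offsets, and 1497 to 4655 without 1 more library. Where that left 1 TRB library with T3, it was assumed to vary like the other groups. Other scalings and count filters kept both counts within 1.5 times.

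The replicate number as a block gave 1068 genes with 12 libraries and 3223 with 11, and 3564 and 5049 with the replicate block and GC offsets together. Deviations of TRB and EV libraries with the same number under T3 correlated by 0.06, 0.73 and 0.64. TRB replicate 1 correlated best with EV replicate 3 (0.63). Whether libraries with the same number were handled together is not given, and it was not tested.

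Of the named genes called, 68 of 109 passed in every fit without 1 library. KLF9 changed sign: -0.54 with limma-voom (passed as lower, adjusted p 9.84e-05), -0.0175 with upper-quartile factors, -0.0198 with at least 10 counts in every library, -0.0224 with the replicate block, -0.13 with the replicate block and GC offsets, -0.0760 with GC offsets and -0.0828 with GC offsets on the compared groups alone. So did HR, with 0.0465 under GC offsets, 0.0523 with the replicate block added and 0.0336 on the compared groups alone. Without 1 library KLF9 ranged from -0.45 to 0.28 and HR from -0.94 to 0.0896. Depth limits low genes most, since the filter asks for about 10 counts in 3 libraries and EV with T3 replicate 3 had 3819306 counts.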
